A study of Homo sapiens with 6 samples.

Results

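The transcripts of the aminoacyl-tRNA synthetases were measured in A2780 cells, a human ovarian cancer cell line, without and with recombinant CRMP2 protein. The members were the protein-coding genes whose symbol is built as an amino acid letter followed by ARS, with the added endings 1, 2, A, B or L, together with EPRS and TARSL2. This rule found 38 of the 44591 genes listed, and it used no expression value. Of the 38, 17 end in ARS2 and encode enzymes that work in mitochondria, and 21 are cytosolic or serve both compartments. Polyadenylated RNA was sequenced from 3 untreated libraries and from 3 libraries of cells given human r-CRMP2 at 40 ng/ml for 48 h, added to the culture medium. All 6 libraries came from the same wild-type line at the same time point, and the labels name no vehicle for the untreated cells. The labels number the replicates but do not say that they were separate cultures, so the p-values below measure the spread between these libraries.

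Aminoacyl-tRNA synthetases join each amino acid to its own tRNA, and the charged tRNA then carries the amino acid to the ribosome. Most amino acids have a separate nuclear gene for the cytosolic and for the mitochondrial enzyme, whereas KARS and GARS each encode both forms. EPRS joins a glutamyl- and a prolyl-tRNA synthetase in 1 chain, and several cytosolic enzymes sit with the scaffold proteins AIMP1, AIMP2 and EEF1E1 in the multisynthetase complex. The enzymes fall into the structurally unrelated classes I and II. Many cytosolic synthetase genes are known targets of ATF4, the transcription factor of the amino acid response.

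The libraries held between 21888530 and 25711353 counts. Changes are given as log2 fold changes of r-CRMP2 over untreated cells from edgeR's quasi-likelihood test, with TMM scaling, and p-values are adjusted over all 16222 genes that passed a filter on low counts. All 38 synthetases passed that filter. Levels in single libraries are given as CPM, that is as counts scaled to a common library size with the TMM factors. The TMM factors lay between 1.10 and 1.12 in untreated and between 0.878 and 0.922 in r-CRMP2 libraries, so the scaling matters for changes as small as most of those below: over all genes tested, the median log2 fold change with TMM was -0.03, whereas scaling by library size alone gave -0.34. KRT8 and KRT18, keratins of epithelial cells, stood at 1266 and 1251 CPM on average in untreated and at 1293 and 1435 CPM in r-CRMP2 libraries. EPCAM, another epithelial marker, stood at only 4.44 and 5.53 CPM. The epithelial markers CDH1 and WT1 did not pass the filter, and neither did FAP, KDR, PTPRC, CD14, CD3E and MS4A1. The summed CPM of 8 epithelial markers was 2545 to 2591 in untreated and 2657 to 2866 in r-CRMP2 libraries, that of 9 fibroblast markers 583 to 654 and 514 to 536, that of 4 endothelial markers 6.48 to 7.05 and 1.82 to 2.35, and that of 5 leukocyte markers 21.7 to 26.2 and 72.0 to 78.1. The epithelial sum was carried by KRT8 and KRT18. The lower fibroblast sum did not hold for each marker. Of the 8 fibroblast markers tested, 5 had all r-CRMP2 libraries above the untreated ones and 2 had them below. These shares were 30.9% and 33.3% over all genes tested, and the median log2 fold change of the fibroblast markers was 0.19. The leukocyte sum was carried by CD68 (23.1 and 74.3 CPM on average), and CD3E and MS4A1 were at or near 0. The part of such differences in the results was not tested. As in any bulk sample, fewer cells with a transcript and less of it per cell cannot be told apart.

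More synthetase transcripts fell than rose with r-CRMP2, and nearly all changes were small. At the adjusted p-value threshold of 0.05, 7 of 38 were higher and 18 lower, and 13 did not pass. Of all genes tested, 28.2% were higher and 30.1% lower by the same rule, 58.2% in either direction. The share of lower synthetases was 47.4% and the share of higher ones 18.4%. The median log2 fold change of the cytosolic or shared enzymes was -0.15 and that of the mitochondrial enzymes -0.17. Of the 21 cytosolic or shared enzymes, 5 were higher and 10 lower, and of the 17 mitochondrial enzymes 2 were higher and 8 lower. Past the additional log2 fold change threshold of 1 there was 1 lower synthetase, PARS2, and no higher one. By this rule 5.12% of all genes were higher and 8.86% lower. Scaled by library size alone, which made 52.1% of all genes lower and 13.4% higher, 31 synthetases were lower and 0 higher. There, none of the 7 rises was called, whereas all 18 falls were. This scaling moved the median log2 fold change of all genes from -0.03 to -0.34, so it works against rises and favors falls. Of the rises, DARS, KARS, GARS, IARS2, YARS and QARS passed in 12 of 13 alternatives, missing only this one, and WARS2 passed in 10. Of the 18 falls, 14 passed in every alternative in which the gene could be tested.

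**Figure D1:**
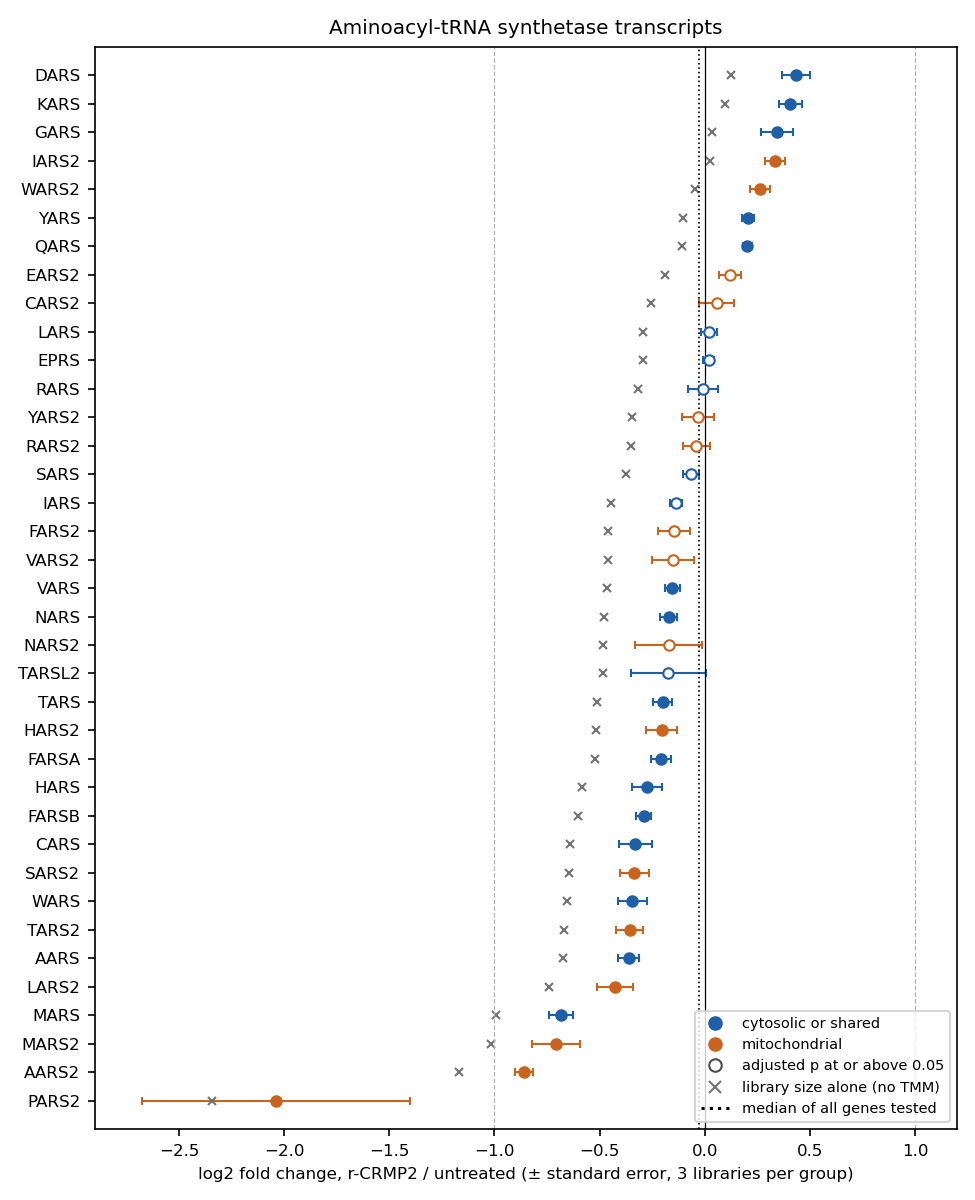
Log2 fold change of 37 synthetases (points, ± standard error from 3 libraries per group), in blue for cytosolic or shared and in orange for mitochondrial enzymes, with filled points for an adjusted p under 0.05. Crosses give the value with library size alone, all of which lie to the left of the TMM values, and PARS2 is the only point beyond the dashed line at -1.

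PARS2, the mitochondrial prolyl-tRNA synthetase (chromosome 1, 55222571 to 55230226 in the deposited hg19 positions), had the largest fall. Its levels were 5.29, 4.81 and 4.53 CPM in untreated replicates 1, 2 and 3, and 2.15, 0.404 and 0.958 CPM in r-CRMP2 replicates 1, 2 and 3. The groups did not overlap, and r-CRMP2 replicate 2 was the lowest. These rest on 118 to 147 counts in untreated and on 8 to 46 counts in r-CRMP2 libraries, the fewest of any synthetase. The log2 fold change was -2.04 ± 0.64 (SE, edgeR adjusted p = 1.22e-05). It was -1.65 without r-CRMP2 replicate 2 and -2.78 without r-CRMP2 replicate 1.

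AARS2, the mitochondrial alanyl-tRNA synthetase (chromosome 6, 44266463 to 44281063), stood at 27.2, 26.4 and 28.6 CPM in untreated and at 14.8, 14.8 and 15.7 CPM in r-CRMP2 libraries. The replicates lay close together and the groups far apart. The log2 fold change was -0.86 ± 0.04 (SE, edgeR adjusted p = 6.03e-08). AARS, its cytosolic counterpart (chromosome 16, 70286297 to 70323412), also fell, but less, with a log2 fold change of -0.36 ± 0.05 (SE, edgeR adjusted p = 7.40e-05).

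Both methionyl-tRNA synthetases fell, by nearly the same factor. MARS, the cytosolic enzyme (chromosome 12, 57881736 to 57910438), which charges both the initiator and the elongator methionine tRNA, stood at 76.8, 73.6 and 80.3 CPM in untreated and at 46.6, 46.0 and 51.0 CPM in r-CRMP2 libraries. MARS2, the mitochondrial enzyme (chromosome 2, 198570028 to 198573114), stood at 14.7, 12.9 and 13.8 CPM and at 9.31, 7.33 and 8.71 CPM. Neither gene had overlapping groups. The log2 fold change was -0.68 (SE 0.06, edgeR adjusted p = 7.51e-08) for MARS and -0.71 (SE 0.11, edgeR adjusted p = 3.82e-05) for MARS2. In the deposited positions MARS overlaps DDIT3, on the other strand, by 68 bases, and the use of strand in counting is not given in the sources used here. DDIT3 was higher and had 1522 counts over the 6 libraries, against 9215 for MARS.

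LARS2, the mitochondrial leucyl-tRNA synthetase (chromosome 3, 45430075 to 45590328), stood at 25.2, 25.6 and 28.7 CPM in untreated and at 18.7, 19.0 and 21.4 CPM in r-CRMP2 libraries, a log2 fold change of -0.43 ± 0.08 (SE, edgeR adjusted p = 3.66e-04). All r-CRMP2 libraries were below all untreated ones.

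The largest rise was in DARS, the cytosolic aspartyl-tRNA synthetase of the multisynthetase complex (chromosome 2, 136663451 to 136743254). It stood at 45.8, 42.6 and 44.9 CPM in untreated and at 57.1, 65.1 and 58.1 CPM in r-CRMP2 libraries, a log2 fold change of 0.44 ± 0.07 (SE, edgeR adjusted p = 3.55e-05). KARS, the lysyl-tRNA synthetase of both compartments (chromosome 16, 75661622 to 75681585), stood at 172, 163 and 168 CPM and at 210.0, 238 and 219 CPM, a log2 fold change of 0.41 ± 0.06 (SE, edgeR adjusted p = 1.83e-05). GARS, the glycyl-tRNA synthetase of both compartments (chromosome 7, 30634351 to 30673649), stood at 139, 120.5 and 133 CPM and at 156, 169 and 173 CPM, a log2 fold change of 0.34 ± 0.08 (SE, edgeR adjusted p = 2.31e-04). Both enzymes encoded by 1 gene for cytosol and mitochondria were thus among the 3 largest rises.

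IARS2, the mitochondrial isoleucyl-tRNA synthetase (chromosome 1, 220267455 to 220321383), stood at 266, 247 and 252 CPM in untreated and at 305, 332 and 327 CPM in r-CRMP2 libraries, a log2 fold change of 0.33 ± 0.05 (SE, edgeR adjusted p = 1.22e-04). WARS2, the mitochondrial tryptophanyl-tRNA synthetase (chromosome 1, 119573839 to 119683295), stood at 17.6, 16.3 and 16.0 CPM and at 20.5, 20.02 and 19.4 CPM, a log2 fold change of 0.26 ± 0.05 (SE, edgeR adjusted p = 0.0146). YARS, the cytosolic tyrosyl-tRNA synthetase (chromosome 1, 33240840 to 33283633), stood at 160.2, 158 and 163 CPM and at 181, 183 and 191 CPM, a log2 fold change of 0.21 ± 0.03 (SE, edgeR adjusted p = 0.00548). None of these 6 genes had an r-CRMP2 library at or below an untreated one. QARS, the glutaminyl-tRNA synthetase, was the seventh higher gene (log2 fold change 0.20, adjusted p = 0.00593, edgeR). With library size alone, DARS, KARS, GARS and IARS2 had log2 fold changes of 0.12, 0.10, 0.03 and 0.02, and WARS2, YARS and QARS turned to -0.05, -0.10 and -0.11, none of them past the threshold. Without untreated replicate 2 or untreated replicate 3, WARS2 had 0.25 and 0.24 and missed the threshold (adjusted p = 0.0548 and 0.0597, edgeR).

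**Figure D2:**
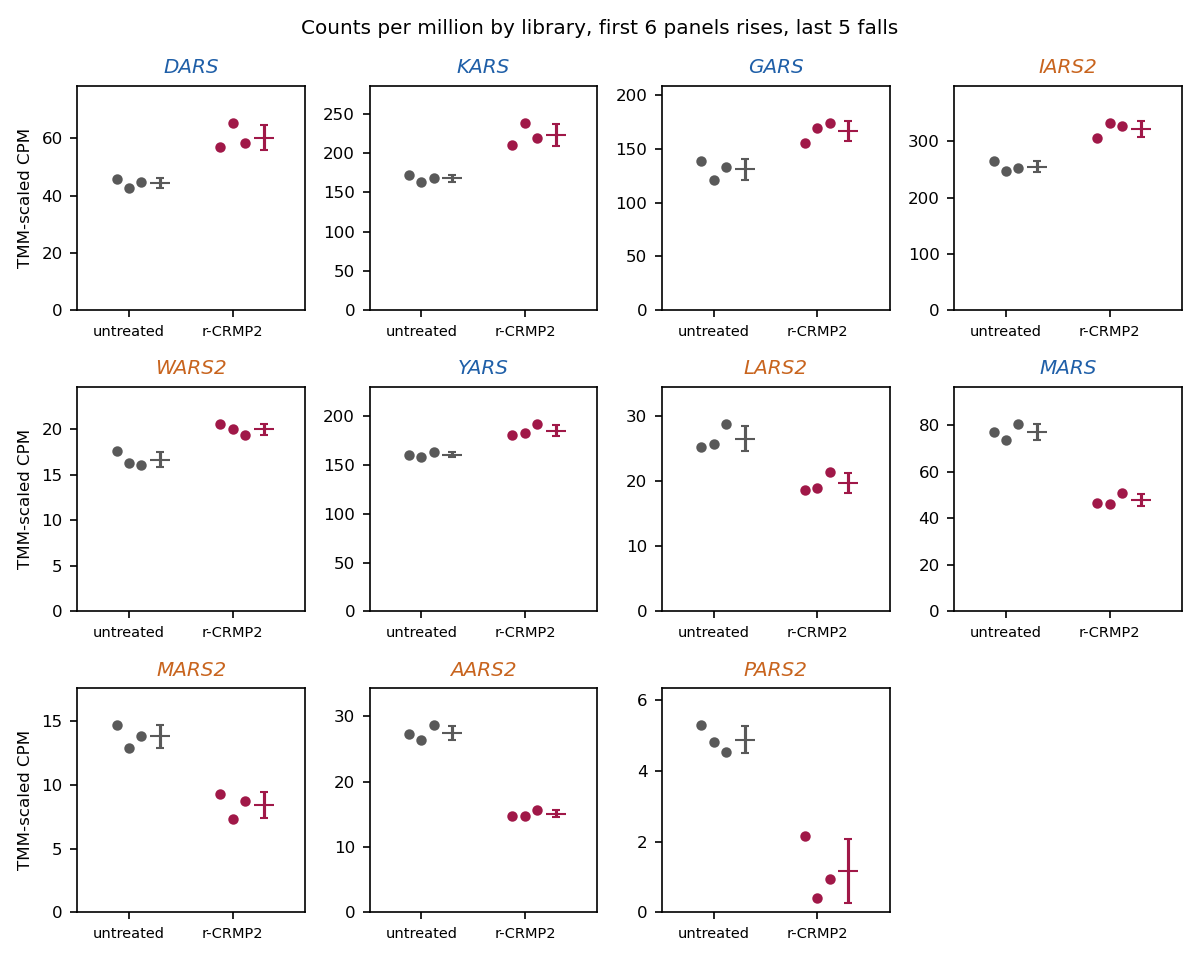
TMM-scaled CPM of 11 synthetases with large rises (DARS, KARS, GARS, IARS2, WARS2, YARS) and falls (LARS2, MARS, MARS2, AARS2, PARS2), with a point for each library and the mean ± SD beside the 3 points of a group. In every panel the points of the groups are apart, and the axis starts at 0.

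The other falls were spread over both compartments. In the cytosol WARS, CARS, FARSB, HARS, FARSA, TARS, NARS and VARS fell, with log2 fold changes from -0.34 for WARS, the tryptophanyl-tRNA synthetase, to -0.15 for VARS, the valyl-tRNA synthetase that binds the elongation factor eEF1. FARSA and FARSB encode the subunits of 1 enzyme for phenylalanine, and they fell alike (-0.21 and -0.29, adjusted p = 0.00706 and 6.51e-04, edgeR). Among mitochondrial enzymes TARS2 (-0.36), SARS2 (-0.34) and HARS2 (-0.21) fell too. SARS2 overlaps MRPS12, a mitochondrial ribosomal protein gene on the other strand, by 189 bases, and MRPS12 was also lower (log2 fold change -0.29). YARS overlaps S100PBP by 591 bases, WARS2 overlaps LOC101929147 (log2 fold change -1.30) by 277 and MARS overlaps ARHGAP9 by 862, all on the other strand. DARS overlaps DARS-AS1 (-0.96) and another antisense gene (-1.01), each by 509 bases. CARS, EARS2, FARS2, FARSA, GARS, IARS, IARS2, LARS, LARS2, NARS2, PARS2, QARS, SARS, TARS2 and WARS also overlap a listed noncoding gene or pseudogene, so some of their counts are uncertain. Some of these genes had almost no counts, such as 0 for that in QARS and 2 for that in PARS2. The noncoding gene that overlaps GARS by 75 bases, on the other strand, had 1766 counts, against 21098 for GARS. It was higher too (log2 fold change 0.40, edgeR adjusted p = 0.00245).

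HARS and HARS2, the cytosolic and mitochondrial histidyl-tRNA synthetases, are neighbouring paralogs that run in opposite directions and overlap by 302 bases in the deposited positions, so part of their counts cannot be assigned with certainty. HARS (chromosome 5, 140053489 to 140071312) stood at 66.9, 61.5 and 67.3 CPM in untreated and at 49.9, 55.5 and 56.6 CPM in r-CRMP2 libraries, a log2 fold change of -0.27 ± 0.07 (SE, edgeR adjusted p = 0.00267). HARS2 (chromosome 5, 140071011 to 140078903) stood at 41.5, 43.9 and 44.1 CPM and at 34.6, 40.8 and 36.9 CPM, a log2 fold change of -0.21 ± 0.08 (SE, edgeR adjusted p = 0.0274). The groups did not overlap for either gene. HARS2 missed the threshold in 4 of the 6 fits that each left out 1 library, without untreated replicates 2 (-0.19) and 3 (-0.19) and without r-CRMP2 replicates 1 (-0.14) and 3 (-0.19), and with DESeq2.

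The threonyl-tRNA synthetases TARS and TARSL2 are cytosolic paralogs with very different levels. TARS (chromosome 5, 33440802 to 33468196) stood at 269.6, 276 and 296 CPM in untreated and at 248, 246 and 238 CPM in r-CRMP2 libraries, with a log2 fold change of -0.20 ± 0.05 (SE, edgeR adjusted p = 0.00884). TARSL2 (chromosome 15, 102193955 to 102264645) stood at 8.23, 9.54 and 8.85 CPM and at 7.30, 9.76 and 6.62 CPM, and its groups overlapped (log2 fold change -0.17 ± 0.18 SE, edgeR adjusted p = 0.315). TARS was -0.16 without untreated replicate 3 and -0.18 without r-CRMP2 replicate 3, past the threshold in neither fit. NARS, the asparaginyl-tRNA synthetase, missed it without the same libraries (-0.14 in both), and VARS missed it in 5 of the 6 such fits, with values from -0.16 to -0.11. Both also missed it with DESeq2 and with no filter on low counts, and VARS with RLE size factors as well.

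The 13 synthetases that did not pass the threshold had log2 fold changes between -0.17 and 0.12. EPRS (chromosome 1, 220141942 to 220220000) stood at 307, 297 and 302 CPM in untreated and at 311, 297 and 310.4 CPM in r-CRMP2 libraries, and the groups overlapped (log2 fold change 0.02, standard error 0.03). LARS, RARS, SARS, CARS2, YARS2, RARS2, FARS2, VARS2 and NARS2 also had overlapping groups, with values of 0.02, -0.01, -0.06, 0.06, -0.03, -0.04, -0.15, -0.15 and -0.17. IARS (-0.14, adjusted p = 0.054) and EARS2 (0.12, adjusted p = 0.18, both edgeR) had groups that did not overlap but missed the threshold. IARS passed it as lower with library size alone (-0.45), with upper quartile factors (-0.18) and with at least 10 counts in every sample (-0.15). Among all 38 synthetases, 8 had all r-CRMP2 libraries above and 19 all r-CRMP2 libraries below the untreated ones, against 30.9% and 33.3% of all genes tested, or 64.2% in either direction.

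The counts of rises and falls varied between groups of members that the selection did not use. Of the 8 enzymes of the multisynthetase complex (EPRS, IARS, LARS, QARS, MARS, KARS, RARS and DARS), 3 were higher and 1, MARS, was lower, with a median log2 fold change of 0.02. Of the 13 other cytosolic or shared enzymes, 2 were higher and 9 lower, with a median of -0.20. With library size alone, 0 and 5 of the complex enzymes and 0 and 11 of the others were higher and lower. The medians were -0.29 and -0.51, a shift of both by about the same amount. By that scaling 13.4% of all genes tested were higher and 52.1% lower. The median of the complex enzymes was 0.04 with RLE size factors and -0.03 with upper quartile factors. Of the 18 class I enzymes 4 (22.2%) were higher and 6 (33.3%) lower, with a median of -0.04. Of the 19 class II enzymes 3 (15.8%) were higher and 12 (63.2%) lower, with a median of -0.21. The counts came closer with library size alone, with 0 higher and 14 lower in class I and 0 higher and 16 lower in class II. The medians there were -0.35 and -0.52, a shift of both by about the same amount. EPRS holds a domain of each class and was counted in neither. These splits are descriptions and were not tested.

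Within 1 library, the ratio of a cytosolic enzyme to the mitochondrial enzyme for the same amino acid does not depend on the scaling between libraries. The log2 ratio of CPM was computed for 17 pairs, with FARSA as the partner of FARS2 and EPRS as the partner of both EARS2 and PARS2. In 7 pairs all r-CRMP2 libraries had a higher ratio than all untreated ones, in 4 pairs a lower one, and in 6 the groups overlapped. Among single genes, the groups did not overlap for 64.2% of all those tested. No such share was computed for ratios of other genes, so these counts set the pairs apart from nothing. The 11 pairs without overlap all had p = 0.1 in a two-sided exact permutation test, the smallest value that 3 against 3 libraries allow, so none could pass 0.05. The median difference over the 17 pairs was 0.02.

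The largest shift was in EPRS over PARS2, by 2.26 (standard error 0.62), a ratio computed on the low counts of PARS2. The ratios of AARS to AARS2, LARS to LARS2, SARS to SARS2, YARS to YARS2 and TARS to TARS2 shifted upward by 0.50, 0.45, 0.27, 0.24 and 0.16.

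The tryptophan, isoleucine and cysteine pairs moved the other way. The log2 ratio of WARS to WARS2 went from 2.58 ± 0.09 to 1.98 ± 0.08 (SD, n = 3 in each group, exact permutation p = 0.1), a difference of -0.61 with a standard error of 0.07. That of IARS to IARS2 changed by -0.47 (standard error 0.05) and that of CARS to CARS2 by -0.39 (standard error 0.08). EPRS over EARS2 changed by -0.10 (standard error 0.04). The methionine pair, whose members both fell, had a difference of 0.02 with a standard error of 0.11, and its groups overlapped.

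**Figure D3:**
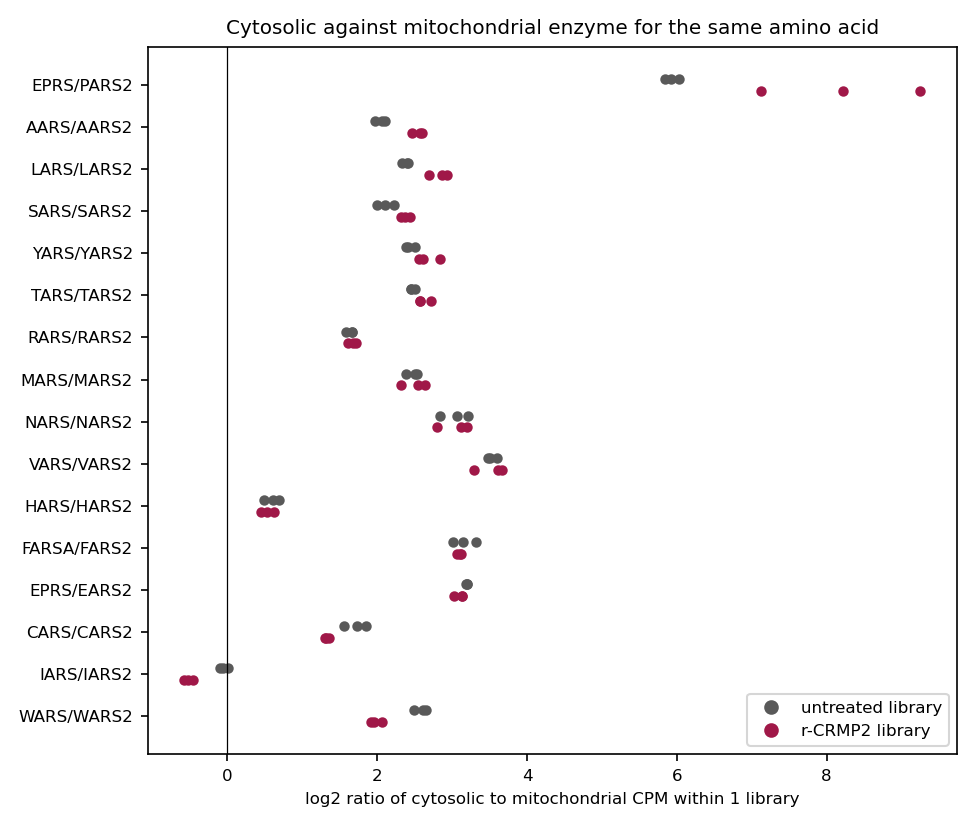
Log2 ratio of cytosolic to mitochondrial CPM within each library for 16 pairs, in grey for the 3 untreated and in red for the 3 r-CRMP2 libraries, ordered by the difference between the groups. EPRS/PARS2 and AARS/AARS2 lie higher and IARS/IARS2 and WARS/WARS2 lower in the r-CRMP2 libraries.

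In level per length, the cytosolic enzymes stood above the mitochondrial ones. By the deposited TPM, QARS was the most abundant synthetase, at 399 ± 3.59 TPM in untreated and 367 ± 12.1 TPM in r-CRMP2 libraries (SD, n = 3 in each group). TARS (216 ± 12.5 TPM), FARSA (198 ± 2.92 TPM), KARS (186 ± 2.04 TPM) and IARS2 (175 ± 4.18 TPM) followed in untreated cells. IARS2 was the only mitochondrial enzyme among the 20 highest. The lowest were MARS2 (10.9 ± 0.534 TPM), TARSL2 (6.57 ± 0.576 TPM) and PARS2 (4.98 ± 0.331 TPM, SD, n = 3 for each untreated value). Between neighbours in this order, the untreated libraries overlapped in 20 of 37 cases, so much of the exact order is not resolved. In 15 of the 17 pairs the TPM of the mitochondrial enzyme in every library was below the lowest of its cytosolic partner, and IARS2 was among the exceptions.

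The summed TPM of the 21 cytosolic or shared enzymes was 2431, 2417 and 2495 in untreated and 1986, 1871 and 1994 in r-CRMP2 libraries, and that of the 17 mitochondrial enzymes was 530.3, 533 and 545 and 428, 414 and 430.3. Both sums were lower in all r-CRMP2 libraries on this scale, which is not corrected for the composition of the library. After TMM scaling the sums were 3193, 3098 and 3225 CPM and 3080.3, 3158 and 3177 CPM for the cytosolic or shared and 687, 666 and 688 CPM and 661, 698 and 687 CPM for the mitochondrial enzymes, and the groups overlapped. The ratio of the summed TPM of the compartments was between 4.53 and 4.58 in untreated and between 4.52 and 4.64 in r-CRMP2 libraries.

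**Figure D4:**
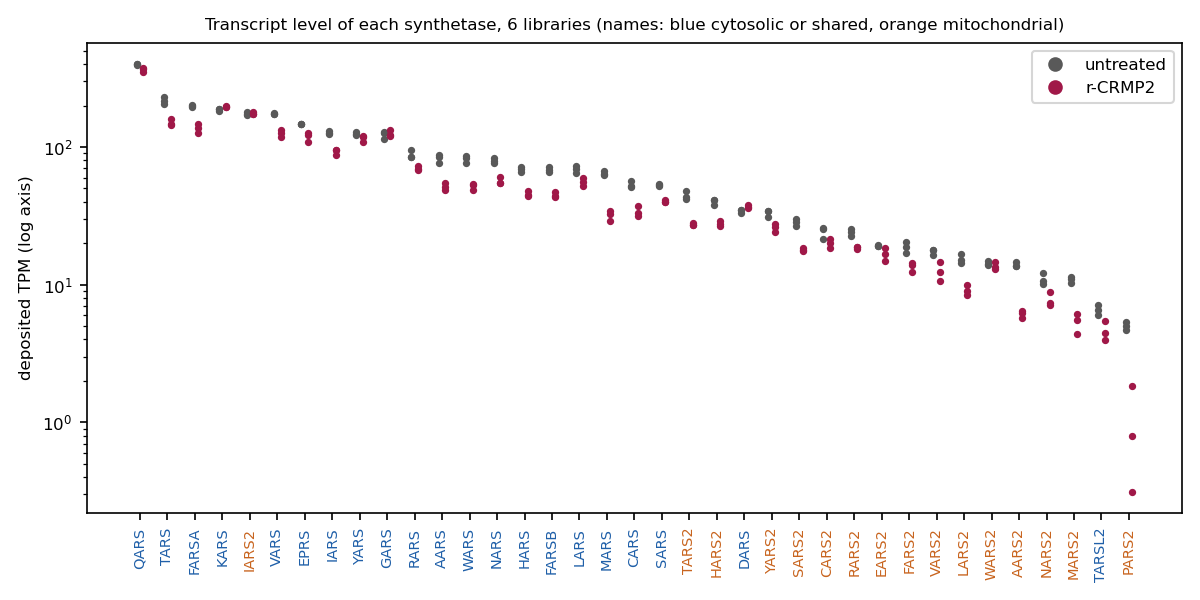
Deposited TPM of 37 synthetases in each of the 6 libraries on a log axis, ordered by the untreated mean, in grey for untreated and in red for r-CRMP2 libraries. QARS is at the left near 400 TPM, IARS2 is the only orange name among the 20 at the left, and PARS2 is at the right with its 3 r-CRMP2 points well below the others.

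Promoter sequences of 30 of the 38 genes were matched in RefSeq (GRCh38.p14), and the 250 bases before each start were searched on both strands. The letters TGATGNAA, the core of the CARE site through which ATF4 and C/EBP proteins bind the genes of the amino acid response, were found for 4 of the 30 genes (13.3%) and for 3.89% of all 27305 genes searched. The matches are shown because this element is the known link between the amino acid response and synthetase genes. Each line gives up to 30 bases on the strand of the gene, with the match in capitals, either as TGATGNAA or as its reverse complement.
GARS: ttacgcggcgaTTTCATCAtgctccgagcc
AARS: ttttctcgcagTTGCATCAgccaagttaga
IARS: ttttcagcgcgTTGCATCAcctcc
YARS2: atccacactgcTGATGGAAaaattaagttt
They lie at chr7:30594834-30594863 (plus strand), chr16:70289675-70289704, chr9:92293698-92293721 and chr12:32756076-32756105 (minus strand). The match begins 33, 187, 13 and 197 bases before the start of the gene, which for GARS is the second of its listed starts. AARS and IARS carry the same 8 letters. Of the 4 genes, GARS was higher, AARS lower, and IARS and YARS2 did not pass the threshold. The letters CACGTG, the E-box bound by MYC, were found for 3 of the 30 genes against 7.73% of all genes, and ACGTG, the core bound by HIF-1, which every CACGTG contains, for 7 of the 30 (23.3%) against 21.7% of all genes. A match is a sequence feature and no evidence of binding.

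Of the 3 scaffold proteins of the multisynthetase complex, 1 (33.3%) was lower, against 30.1% of all genes tested. AIMP2 stood at 22.5, 24.2 and 23.4 CPM in untreated and at 15.1, 13.9 and 15.6 CPM in r-CRMP2 libraries, a log2 fold change of -0.65 ± 0.06 (SE, edgeR adjusted p = 3.99e-06). In the deposited positions AIMP2 (chromosome 7, 6048882 to 6063465) overlaps EIF2AK1 (6061878 to 6098860), on the other strand. EIF2AK1 had 3134 to 4175 counts per library and AIMP2 275 to 639, so part of the counts of both is uncertain. AIMP1 (0.18, adjusted p = 0.0658) and EEF1E1 (-0.03, adjusted p = 0.81, both edgeR) did not pass the threshold. With RLE size factors, without untreated replicate 1 and without r-CRMP2 replicate 3, 1 scaffold gene was called higher. All 3 had negative values with library size alone (AIMP2 -0.96, EEF1E1 -0.35 and AIMP1 -0.13), and EEF1E1 passed as lower. In a list of 14 genes for acylation accessory steps and tRNA maturation, 1 was higher and 8 lower, with a median of -0.20. These are 7.14% and 57.1%, against 28.2% and 30.1% of all genes tested. The lower count was 12 with library size alone, where 52.1% of all genes tested were lower. It was 5 with DESeq2 or with no filter on low counts. It was also 5 without untreated replicate 1, untreated replicate 3 or r-CRMP2 replicate 1, and 4 without r-CRMP2 replicate 3. ELAC1, a tRNA 3′ processing nuclease, fell past both thresholds from very low levels of 1.01, 1.55 and 1.46 CPM to 0.234, 0.152 and 0.0435 CPM (log2 fold change -3.20 ± 0.43 SE, edgeR adjusted p = 1.38e-05). These levels rest on 28 to 40 counts in untreated and on 1 to 5 counts in r-CRMP2 libraries. The standard error was computed with a prior count of 2, which narrows the spread at such counts. GATC, a subunit of the mitochondrial glutaminyl-tRNA amidotransferase, was the higher one (0.39, adjusted p = 4.22e-05, edgeR), but had 0.08 with library size alone and did not pass there. MTFMT, which formylates the mitochondrial initiator tRNA that MARS2 charges, fell by 0.53 on the log2 scale (adjusted p = 6.17e-04, edgeR).

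Of 12 mitochondrial translation factors none was higher and 4 (33.3%) were lower, against 28.2% and 30.1% of all genes tested. The median was -0.05. With library size alone 11 were lower, with a median of -0.36. By that scaling 13.4% of all genes tested were higher and 52.1% lower, with a median of -0.34. The 4 were TSFM, the exchange factor of the mitochondrial elongation factor Tu (-0.75), the release factor MTRF1 (-0.61), C12orf65 (-0.62) and GUF1 (-0.43). The cytosolic elongation factors, which act with the ribosome after tRNA charging, went the other way. Of 7 genes 6 (85.7%) were higher and none lower, against 28.2% and 30.1% of all genes tested. The median was 0.63. With library size alone 5 were still higher, the median was 0.31, EEF1B2 missed the threshold and EIF5A was lower (-0.36). EEF1A1, which brings the charged tRNA to the ribosome, stood at 7936, 8198 and 8096 CPM in untreated and at 12724, 14360.5 and 13164 CPM in r-CRMP2 libraries (log2 fold change 0.73 ± 0.05 SE, edgeR adjusted p = 2.92e-08). EEF2, the translocation factor, stood at 5382, 5544 and 5299 CPM and at 8176, 8497 and 8715 CPM (0.65 ± 0.03 SE, edgeR adjusted p = 6.98e-08). These 2 genes had the highest levels of the list.

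Of the kinases that phosphorylate eIF2α and so start the ATF4 response, EIF2AK4 (GCN2), which senses uncharged tRNA, was lower (-0.43, adjusted p = 2.12e-05, edgeR), and the other 3 did not pass the threshold. Of the 4 kinases 0% were higher and 25% lower, against 28.2% and 30.1% of all genes tested. All 4 were lower with library size alone, EIF2AK1 with -0.22, EIF2AK2 with -0.45 and EIF2AK3 with -0.28. By that scaling 52.1% of all genes were lower, and the median over all genes was -0.34. ATF4 itself stood at 326, 324 and 335 CPM in untreated and at 342, 362 and 326 CPM in r-CRMP2 libraries, with overlapping groups (log2 fold change 0.07, adjusted p = 0.379, edgeR), and with library size alone it was called lower (-0.25, edgeR adjusted p = 9.42e-04). In a list of 31 genes of the ATF4 response, 30 were tested (not FGF21), of which 12 were higher and 12 lower. These are 40% and 40% of the genes tested in the list, against 28.2% and 30.1% of all genes tested. The median was -0.03, equal to that of all genes. With library size alone 8 were higher and 18 lower, with a median of -0.34, equal to that of all genes under this scaling.

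Past both thresholds 3 of these 30 genes were higher and 4 lower, against 5.12% and 8.86% of all genes tested. DDIT4, an mTORC1 inhibitor, had a log2 fold change of 1.82 (918 ± 81.5 to 3242 ± 417 CPM, SD, n = 3 in each group), STC2, a secreted glycoprotein, 1.71 and CEBPB, a transcription factor, 1.53. SLC7A11, the cystine transporter, had -1.50, CHAC1, a glutathione-degrading enzyme, -1.32, JDP2, a repressor of the AP-1 family, -1.15, and SLC6A9, a glycine transporter, -1.08. The value of CHAC1 (standard error 0.37) rests on low counts, 42 to 78 in untreated and 14 to 25 in r-CRMP2 libraries. SLC7A11 stood at 54.7, 62.3 and 62.0 CPM in untreated and at 25.2, 17.1 and 20.9 CPM in r-CRMP2 libraries. ASNS, the asparagine synthetase, did not pass the threshold (-0.22, adjusted p = 0.0752, edgeR). TRIB3, a pseudokinase induced by ATF4, was lower (-0.30, adjusted p = 0.00103), and DDIT3, which encodes CHOP, higher (0.58, adjusted p = 0.00253, both edgeR), but DDIT3 had 0.26 with library size alone and did not pass there.

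**Figure D5:**
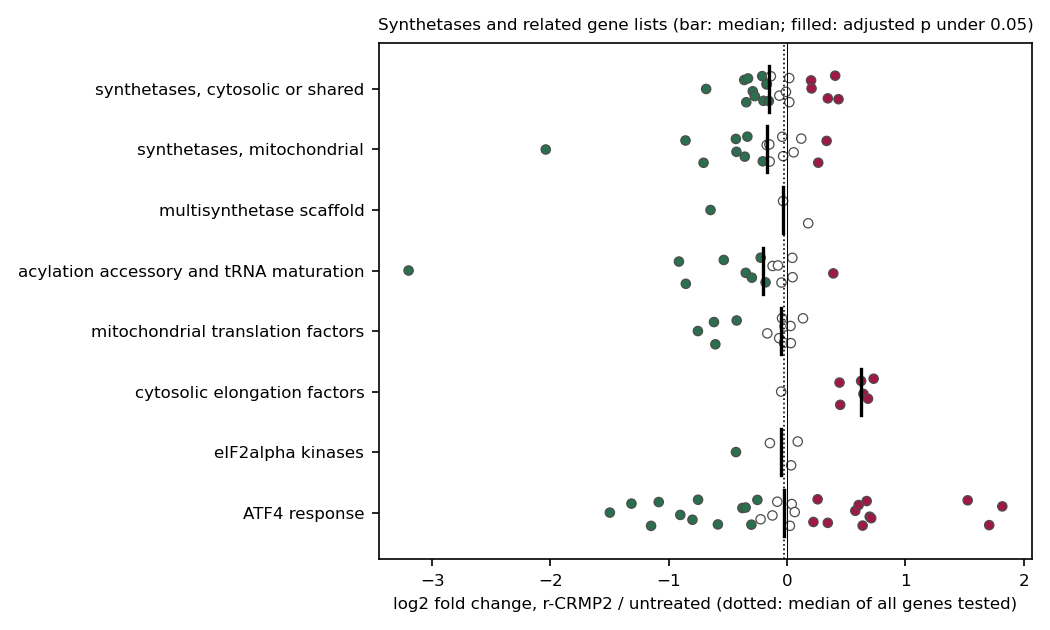
Log2 fold changes of the synthetases and of 6 related gene lists (points), with a bar at each median and filled points for an adjusted p under 0.05, in red for higher and in green for lower genes. The cytosolic elongation factors have their median at 0.63, the synthetases have theirs at -0.15 and -0.17, and the ATF4 response genes spread from -1.50 to 1.82 around -0.03.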

How the data were processed

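Reads of polyadenylated RNA were counted per gene by the authors, who deposited raw counts and TPM values for each library. The submitters' processing notes name FastQC, HISAT2, DESeq2 and the build hg19, without versions. The counting tool and the use of strand are not given in the sources used here. Recomputing TPM from the counts and gene lengths gave the deposited values to within 4.72e-06. Levels are compared between genes only in TPM.

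The counts were compared with edgeR 4.0.16 (limma 3.58.1, R 4.3.3): filterByExpr, TMM and the quasi-likelihood test on 6 libraries, with Benjamini-Hochberg adjustment over 16222 genes. The thresholds were 0.05 for the adjusted p-value and, where both are named, 1 for the size of the log2 fold change. The fit was tested on simulated data. Standard errors come from log2 CPM with a prior count of 2. The members and gene lists were chosen with earlier results of these data known. A synthetase that is counted among the members is otherwise not reported here, and the others are all named. Values by library are given for the 6 largest rises and falls among those past the adjusted p-value threshold, for those past both thresholds, and for KARS, GARS, EPRS, HARS, HARS2, TARS and TARSL2. Of the lists, genes past both thresholds and ATF4, ASNS, DDIT3, TRIB3 and CHAC1 are named, and a few others were chosen after their values were seen. Alternatives were RLE and upper quartile factors, library size alone, DESeq2 1.42.0, other count filters, a replicate block and leaving out each library.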

Additional observations from a re-analysis of the deposited data

How the results depend on the processing

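With library size alone, 52.1% of all genes tested were lower and 13.4% higher, 0 synthetases were higher and 31 lower at the adjusted p-value threshold, 3 were lower past both thresholds, and the medians of the cytosolic or shared and the mitochondrial enzymes were -0.46 and -0.48. The 6 lists held 3, 14, 12, 7, 4 and 30 genes that were tested. Of these genes, 19 were higher and 26 lower, beside 28.2% and 30.1% of all genes tested. With library size alone 13 were higher and 48 lower, beside 13.4% and 52.1% of all genes. The median of the cytosolic or shared enzymes was -0.13 with RLE size factors, -0.13 with DESeq2 and -0.20 with upper quartile factors. No synthetase was past both thresholds with at least 10 counts in every sample, a filter that removes PARS2. When each library was left out in turn, the median of the cytosolic or shared enzymes was between -0.16 and -0.11, that of the mitochondrial enzymes between -0.26 and -0.14, and the median difference of the within-library log2 ratio between 0.0018 and 0.11.

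RARS turned to 0.011 with RLE size factors and to 0.011 with DESeq2. With library size alone CARS2, EARS2, EPRS and LARS turned to -0.26, -0.19, -0.29 and -0.29, and QARS, WARS2 and YARS to -0.11, -0.046 and -0.10. With upper quartile factors EPRS and LARS turned to -0.029 and -0.028. Leaving out 1 library at a time, CARS2 was between -0.014 and 0.10, LARS between -0.0061 and 0.055, RARS between -0.043 and 0.059, RARS2 between -0.088 and 0.014 and YARS2 between -0.074 and 0.032. VARS2 without r-CRMP2 replicate 1 (-0.23) and TARSL2 without r-CRMP2 replicate 2 (-0.34) passed the threshold, as did IARS under 3 alternatives.

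A fit with a replicate block called 7 synthetases higher and 17 lower, and VARS (-0.15) missed the threshold. The numbers gave no evident pairing: across genes, libraries with the same number deviated from their groups with correlations of -0.02, 0.0038 and -0.03. The 3 libraries of a group and the low counts of PARS2 limit the precision.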
